A study of Rattus norvegicus with 6 samples.

Results

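The cytosolic ribosomal protein genes encode the proteins of the large (60S) and small (40S) subunits of the cytoplasmic ribosome. They were followed in rat spinal cord at the epicenter of a chronic contusion injury. Members were all probe sets annotated to a single gene whose symbol starts with Rpl or Rps and a digit, or is Rplp0, Rplp1, Rplp2 or Rpsa, with the S6 kinase genes left out. This gave 63 probe sets for 43 genes out of 8799 probe sets and 4736 singly annotated genes on the array. The rule itself uses gene symbols and no measured value, but it was chosen with earlier results of these data known. Rplp1 and Rplp2 had no such probe set. A further 40 probe sets are annotated to several genes at once, at least 1 of them a ribosomal protein gene, and are not members.

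The 6 one-colour arrays each hold total RNA from cord near thoracic segment 8. According to the sample titles, 3 came from the epicenter of a contusion, a crushing blow, at day 35, and 3 from uninjured cord. The labels give no strain, sex, age or injury force, and name no sham operation, so surgery, elapsed time and contusion cannot be told apart. Whether arrays of a group stand for separate animals is not stated, and p-values then measure only how far these arrays differ, which may be technical.

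A ribosome holds a single copy of nearly every ribosomal protein, so cells make these proteins in matched amounts and their genes are usually expressed together at a high level. Their mRNAs typically begin with a C followed by a run of pyrimidines, the terminal oligopyrimidine (TOP) tract, through which the kinase mTOR and the RNA-binding protein LARP1 control their translation. That control acts on the ribosome loading of the mRNA, which an array does not measure. In the nervous system, neurons, myelinating cells, astrocytes and phagocytes all make ribosomes, and growing or dividing cells make more of them.

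The start sites are shown for the members that passed the test or had the largest changes in either direction and were in the RefSeq table, and for Rpl19 and Rpl31, whose changes were close to 0 and which were picked after their values were seen. Each line gives 10 bases before and 20 from the RefSeq start on, in GRCr8, 5′ to 3′ on the gene's strand, with the unbroken pyrimidine run at the start in capitals.
Rpl22, chr5:168117951-168117980, plus strand: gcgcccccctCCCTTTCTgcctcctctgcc
Rps24, chr16:96507-96536, plus strand: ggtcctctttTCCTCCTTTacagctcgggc
Rpl18, chr1:105325260-105325289, plus strand: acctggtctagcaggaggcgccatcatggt
Rps27l, chr8:76443648-76443677, plus strand: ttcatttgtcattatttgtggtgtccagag
Rps6, chr5:106420521-106420550, minus strand: ctcctaggcggtcggctgtgtcaagatgaa
Rpsa, chr8:128728869-128728898, plus strand: ccgcgctaccCTggaacgggtccgtacggc
Rpl11, chr5:153560783-153560812, minus strand: cttgaagcttgtttggtgctggggagcatc
Rpl21, chr12:13386134-13386163, minus strand: ttccgccggggcagccatcttccaggttgg
Rpl3l, chr10:14258436-14258465, plus strand: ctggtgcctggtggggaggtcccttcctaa
Rpl19, chr10:83519054-83519083, plus strand: ccagcaagctCTTTCCTTTCgctgctgcgt
Rpl31, chr9:49143101-49143130, plus strand: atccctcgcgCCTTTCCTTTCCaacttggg

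The RefSeq table held a start for 36 of the 43 genes; Rpl19l4, Rpl27, Rpl30, Rps2-ps1, Rps29, Rps4x-ps9 and Rps9 were not matched. A C at the annotated start followed by at least 4 pyrimidines was found in 11 of 36 members (30.6%) and in 722 of 27457 genes (2.63%), each taken at its first listed start. The annotated start need not be the one used in the cord. Taking for each gene the brightest of its tested probe sets, the 10 tested genes with such a start had a median log2 change of 0.34, from -0.02 (Rpl19) to 0.54 (Rpl22), and 1 of them passed the test. The 25 tested genes without it had a median of 0.22, from -0.14 to 0.59, and 4 passed. By any probe set, the lowest change among the latter was -0.53 (Rpl3l), and 5 of those genes passed (Rpl18, Rps24, Rps27l, Rps6 and Rpsa). Rps24 is in both counts of passes, although it could be tested only through its contused arrays and its p is no support for a difference. The first range lies within the second, and the difference was not tested.

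Of the 63 probe sets, 61 (42 genes) lay above the floor of the measurement, a signal of 61.6, on at least 3 of the 6 arrays and were tested. Signal is the deposited linear intensity of a probe set. The other 2 were dim throughout. Rpl17 read 60, 79 and 62.3 on the contused arrays and 35.8, 60.8 and 38.8 on the uninjured arrays, and the dimmer of 2 probe sets of the pseudogene Rps2-ps1 did not exceed 33.2 on any array. The Rps24 and Rpl5 probe sets were tested only because their contused arrays lay above the floor, and 58 members were above it on all 6 arrays.

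Ribosomal protein genes were slightly and broadly higher in contused cord. The fitted change was above 0 for 52 of 61 probe sets (85.2%), against 49.4% of all 6705 probe sets tested. The members moved together on single arrays, as described below, so they do not count as independent observations. The median log2 change was 0.22, or 1.17-fold, against -0.01 over all tested. Over the 58 members above the floor on every array the median was also 0.22, against -0.02 over all such probe sets. The quartiles of the members were 0.13 and 0.36. For 59 of 61 (96.7%) the change was under 1.5-fold, against 85.9% of all tested, and 0 members reached 2-fold.

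**Figure D1:**
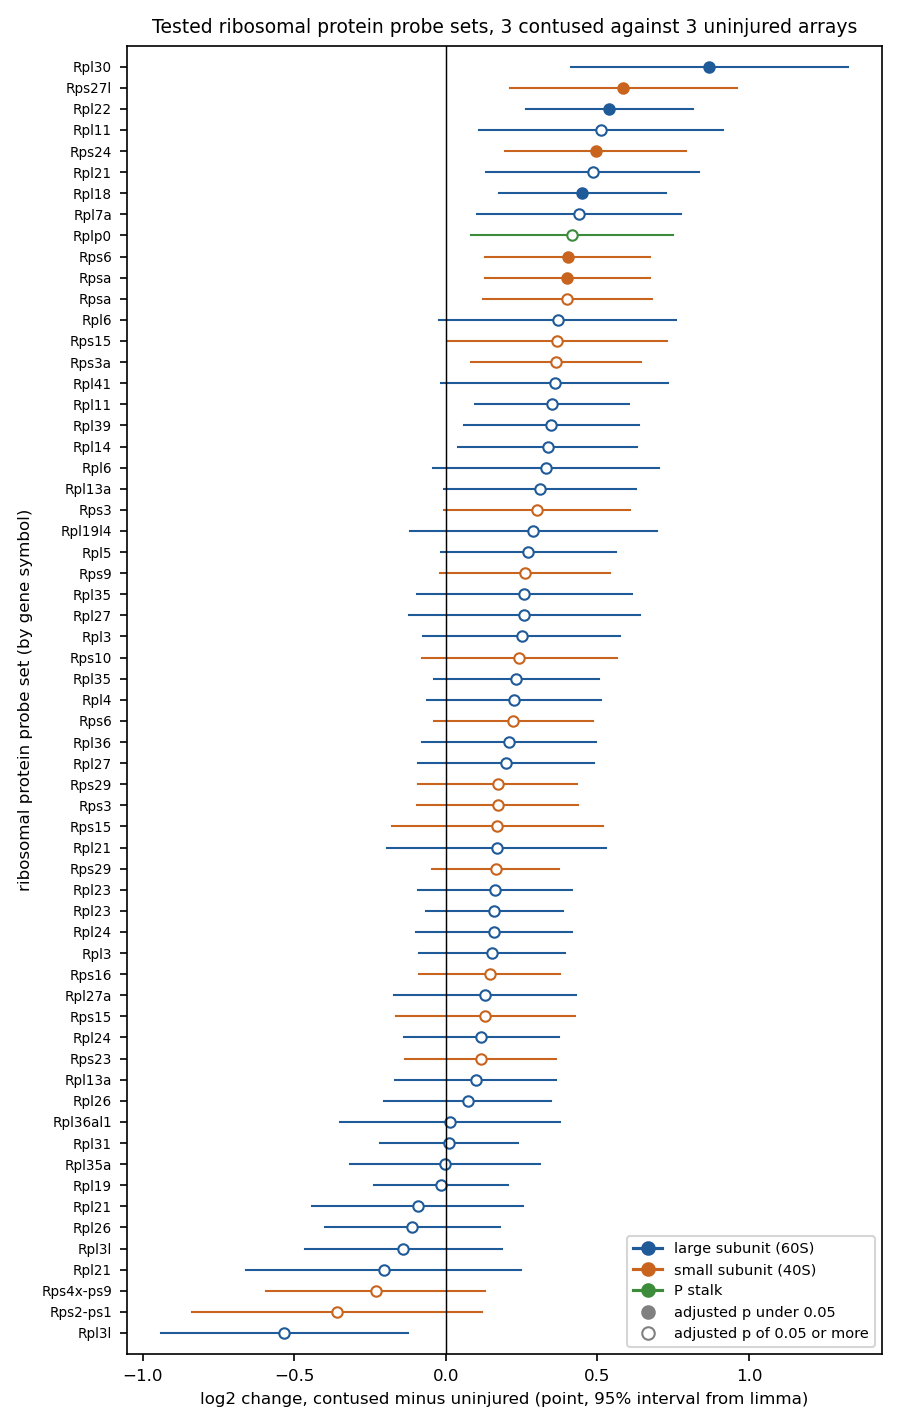
Log2 change (contused minus uninjured, x axis) of each of the 61 tested ribosomal protein probe sets, labelled by gene on the y axis, with 95% intervals from limma. Filled points passed an adjusted p of 0.05, and colours mark the large subunit, the small subunit and the P stalk. Of the points, 52 lie right of 0, 7 are filled, and all filled points are on the right.

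Few of these small differences passed the test after adjustment for the number of probe sets tested. In limma, 7 of 61 member probe sets (11.5%) were higher at a Benjamini-Hochberg adjusted p under 0.05, where 7.79% of all tested were higher. Among probe sets above the floor on all 6 arrays the shares were 5 of 58 (8.62%) and 6.99%. None of the 61 was lower by that test, where 9.59% of all tested were lower, and 1 was lower at an unadjusted p under 0.05, as against 17 higher (16.3% and 14% of all tested). The share called higher is near the background and is not in itself a result about these genes. The 3 contused arrays all lay above the 3 uninjured arrays for 21 members (34.4%), against 16.6% of all tested, and all below for 1 (18.2% of all tested). The count of members called, all higher, was 2 without contused array 2 (3.39%, where 4.41% of all tested were higher). It was 11 without contused array 3 (18.6%, against 6.97%). It was 1 without uninjured array 1 (1.67%, against 5.6%) or uninjured array 3 (1.64%, against 4.37%). The median over members ran from 0.16 to 0.29 as each array was left out in turn.

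The members also differed together between arrays of a group. Relative to each probe set's own mean over 6 arrays, the median of the 61 members was -0.21, 0.00 and -0.12 on uninjured arrays 1, 2 and 3. On contused arrays 1, 2 and 3 it was 0.05, 0.21 and 0.04. Contused array 2 was the highest of all 6 arrays for 35 of the 61 members, and uninjured array 1 the lowest for 32. For these 2 counts the shares over all tested probe sets were not computed. Within the uninjured group, array 2 was the highest for 47 of the 61 members, whereas it was the highest for 40.7% of all tested probe sets. Within the contused group, array 2 was the highest for 40 of the 61 members and for 36.2% of all tested probe sets. The same deviation over all tested probe sets stayed between -0.02 and 0.04. Every contused median was thus above every uninjured one, but uninjured array 2 lay closer to contused arrays 1 and 3 than to uninjured array 1.

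**Figure D2:**
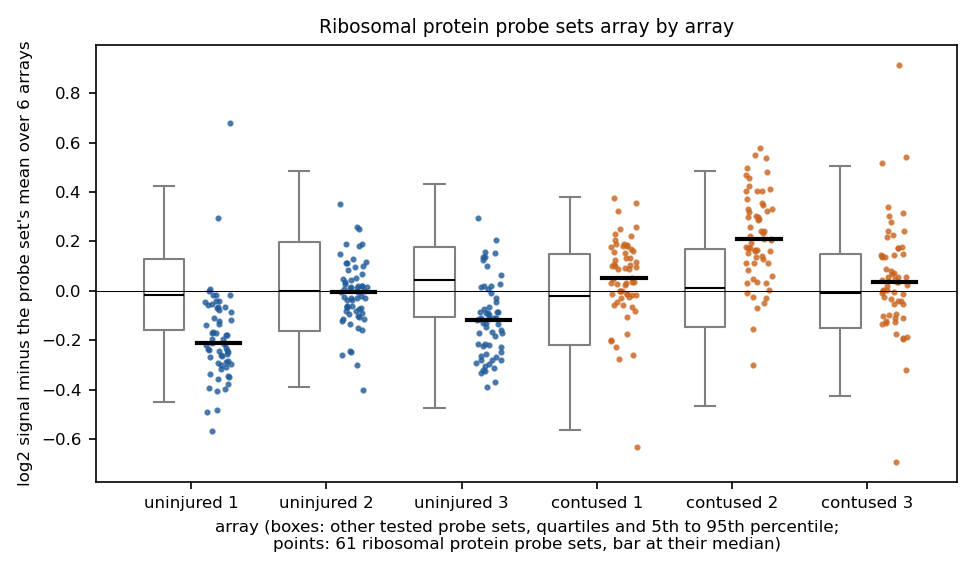
Log2 signal minus the probe set's mean over 6 arrays (y axis) for each array (x axis). Points are the 61 ribosomal protein probe sets with a bar at their median, and boxes show the other tested probe sets (quartiles, whiskers at the 5th and 95th percentile). The member medians run from -0.21 on uninjured array 1 to 0.21 on contused array 2, while the box medians stay near 0.

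Large subunit proteins build the peptidyl transferase centre side of the ribosome and the exit tunnel. Of 40 large subunit probe sets, 3 (7.5%) were higher and 0 lower in limma, against 7.79% and 9.59% of all tested, with 9 higher and 1 lower at an unadjusted p under 0.05 (14% and 16.3% of all tested), and the median log2 change was 0.22.

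Rpl22, an RNA-binding protein of the large subunit, had the smallest p of all members. Its signal was 1529, 1522 and 1600 on the contused arrays and 989, 1233 and 995 on the uninjured arrays. The contused arrays lay close together and all above the uninjured ones. Rpl22 rose 1.45-fold, from 1072 ± 139 to 1550 ± 43.0 (SD, n = 3; log2 change 0.54, SE 0.12, limma adjusted p = 0.0135). The adjusted p was 0.0542 without uninjured array 1 and 0.0751 without uninjured array 3.

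Rpl18, another large subunit protein, read 1083, 1253 and 1064 after contusion and 802, 893 and 790 in uninjured cord. The groups did not overlap. Rpl18 rose 1.37-fold (log2 change 0.45, SE 0.12, limma adjusted p = 0.0301), a call lost without contused array 2 (0.123), uninjured array 1 (0.0934), uninjured array 3 (0.131) or the filter on dim probe sets (0.0512).

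The probe set annotated to Rpl30, a small RNA-binding protein of the large subunit, was dim. It read 90.3, 121 and 172 on the contused arrays and 61.4, 68.9 and 72.4 on the uninjured arrays, 1 of which lay at the floor. The contused arrays were higher but far apart. Its log2 change of 0.87 (SE 0.21, limma adjusted p = 0.0152) was the largest of any member and had one of the widest intervals, from 0.41 to 1.33. The call was lost without uninjured array 2 (0.0523) and without the filter on dim probe sets (0.127).

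Rpl11 and Rpl5 form, with 5S rRNA, the particle that is built into the large subunit and that, when unassembled, binds the p53 regulator Mdm2. Of the 2 probe sets of Rpl11, one read 1152, 1265 and 1209 after contusion against 946, 1002 and 897. Its groups did not overlap, but its log2 change of 0.35 missed the threshold (limma adjusted p = 0.0599). The other read 2120, 2440 and 1431 against 1286, 1522 and 1306, with contused array 3 inside the uninjured range (log2 change 0.51, limma adjusted p = 0.0813). Without contused array 3 that probe set passed, at 0.73 (limma adjusted p = 0.00321), and it also passed with quantile normalization (0.0381). Rpl5 lay at the floor on all uninjured arrays and at 78.1, 85.2 and 61.7 on the contused arrays, with a limma adjusted p of 0.191.

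Rpl7a, a large subunit protein, read 1655, 2450 and 1865 after contusion against 1381, 1601 and 1374. The groups did not overlap, yet the probe set did not pass (log2 change 0.44, limma adjusted p = 0.0739). Rpl14 and Rpl39, the latter a small protein lining the exit tunnel, likewise had groups that did not overlap and did not pass, with log2 changes of 0.34 and 0.35.

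Rplp0 anchors the stalk of P proteins that recruits elongation factors, and was the 1 stalk gene measured. Its signal was 2608, 3716 and 2607 after contusion against 2010, 2421 and 2190. All contused arrays were above the uninjured ones, and contused array 2 stood well above the other 2. The log2 change was 0.42 (95% interval 0.08 to 0.75, limma adjusted p = 0.0866).

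Small subunit proteins form the body that binds mRNA and reads the codons. Of 20 small subunit probe sets, 4 (20%) were higher and 0 lower in limma, against 7.79% and 9.59% of all tested, with 7 higher and 0 lower at an unadjusted p under 0.05 (14% and 16.3% of all tested), and the median log2 change was 0.23. The 4 include Rps24, which could be tested only through its contused arrays, so its p is no support for a difference. The difference between the subunits was not tested.

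Rps6, the small subunit protein phosphorylated by S6 kinases downstream of mTOR, was measured by 2 probe sets. One read 980, 1044 and 1096 after contusion against 769, 864 and 732, and rose 1.32-fold (log2 change 0.40, SE 0.12, limma adjusted p = 0.0469). The other read 1749, 1726 and 2124 against 1623, 1600 and 1555 and did not pass (log2 change 0.22, limma adjusted p = 0.24). In both, the contused arrays were all above the uninjured ones. The first call was lost under each of these changes: leaving out contused array 1 (0.0601), 2 (0.121) or 3 (0.0794), or uninjured array 1 (0.126) or 3 (0.194). It was also lost with a floor at the 10th percentile (0.0524) or at a signal of 1 (0.0563), without the filter (0.0542), without the intensity trend (0.0584) and with the replicate block (0.0625).

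Rpsa, a small subunit protein also known as the laminin receptor, gave near identical changes in its 2 probe sets, 0.40 in both. The 2 probe sets come from the same sequence record and are not independent. One read 2214, 2352 and 1843 after contusion against 1615, 1698 and 1521 and passed (SE 0.12, limma adjusted p = 0.048). The other read 1442, 1596 and 1349 against 1076, 1238 and 1014 and missed it (limma adjusted p = 0.0522). The groups did not overlap in either, and the 2 results differ in their call, not in their size. The first was lost without contused array 1 (0.117), contused array 2 (0.149), uninjured array 1 (0.107), uninjured array 2 (0.0879) or uninjured array 3 (0.182). It was also lost with a floor at the 10th percentile (0.0545) or at a signal of 1 (0.0592), without the filter (0.11) and without the intensity trend (0.0757).

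The Rps24 probe set read 82.5, 75.5 and 105 after contusion and lay at the floor on all uninjured arrays (38.9, 43.3 and 49.5). It was at least 1.41-fold higher after contusion, the contused mean log2 signal against the floor (limma adjusted p = 0.0288). Since it could be tested only through its contused arrays and its uninjured values were all set to the floor, this p is no support for a difference. Without uninjured array 1, 2 or 3 the adjusted p was 0.0763, 0.0963 and 0.0953, it was 0.0962 without the filter, and without any 1 contused array the probe set failed the filter. With a floor at the 10th percentile or at a signal of 1, the uninjured values stayed as deposited and the log2 change was 0.99. The limma adjusted p was then 0.00361 and 0.00462, with uninjured signals that lie below the floor used for the other results. Rps24 helps process the small subunit's RNA.

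The probe set annotated to Rps27l, a close copy of Rps27 known as a p53 target, read 262, 310 and 368 after contusion against 191, 239 and 193. The groups did not overlap. It rose 1.5-fold (log2 change 0.59, SE 0.17, limma adjusted p = 0.037), and the call was lost without contused array 2 (0.0978), contused array 3 (0.0901), uninjured array 1 (0.109) or uninjured array 3 (0.131), and without the filter (0.117). No probe set annotated to Rps27 alone is among the members, so the copies cannot be compared.

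**Figure D3:**
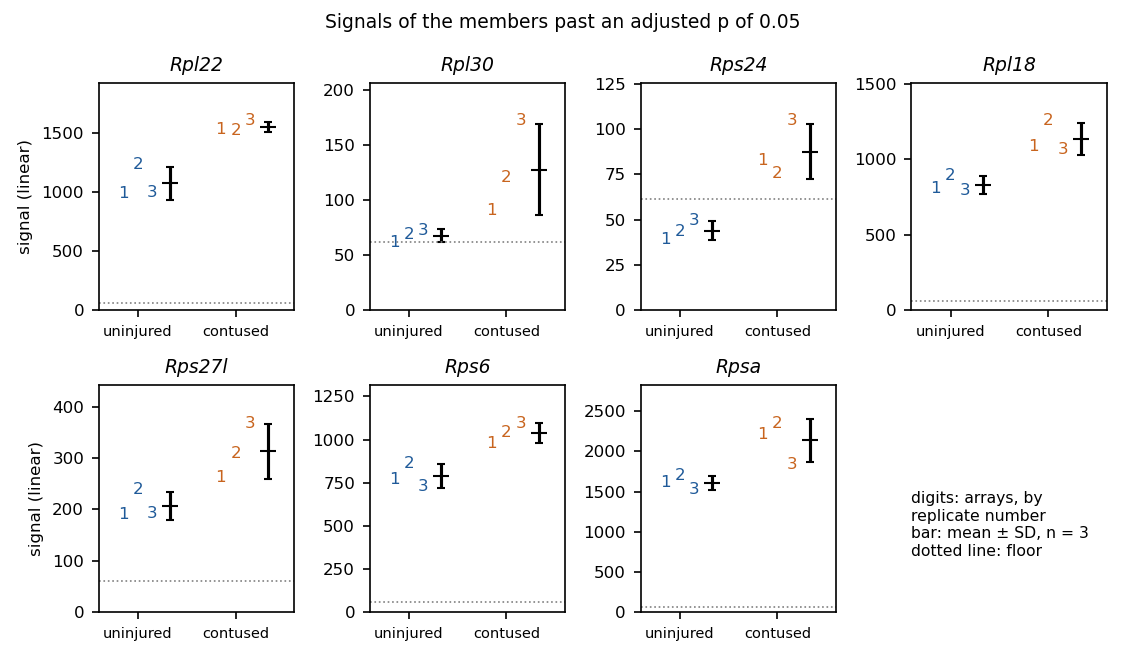
Signal on a linear scale (y axis) of the 7 probe sets past an adjusted p of 0.05, by group (x axis). Digits are single arrays by replicate number, bars are mean ± SD (n = 3), and the dotted line is the floor of 61.6. In each panel the 3 contused arrays lie above the 3 uninjured arrays, and Rps24 and Rpl30 sit close to the floor.

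At the other end stood Rpl3l, a paralog of Rpl3 known as a striated muscle form, and 2 pseudogenes. One Rpl3l probe set read 101, 105 and 66.3 after contusion against 131, 137 and 119, with a log2 change of -0.53 (limma adjusted p = 0.0731). It is the member with all contused arrays below all uninjured ones, and its change was -0.32 without contused array 3. The other read 257, 260 and 242 against 262, 254 and 325, with a change of -0.14 and overlapping groups. Rpl3 itself, which lies near the peptidyl transferase centre, had changes of 0.15 and 0.25 in its 2 probe sets, neither past the threshold. Of 10 tested muscle markers 2 were lower and 0 higher, and their part in the Rpl3l values was not tested.

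The probe set of the pseudogene Rps4x-ps9 read 576, 566 and 816 after contusion against 697, 828 and 747 (log2 change -0.23, limma adjusted p = 0.382). The brighter Rps2-ps1 probe set read 102, 105 and 103 against 188, 95.2 and 131 (log2 change -0.36, limma adjusted p = 0.303), and its change was -0.11 without uninjured array 1 and -0.60 without uninjured array 2. The groups overlapped in both. Among the remaining copies, Rpl19l4 had a log2 change of 0.29 and Rpl36al1 of 0.01, neither past the threshold.

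Some members were measured tightly and showed little or no difference. Rpl19, which bridges the 2 subunits, read 2249, 2339 and 2447 after contusion against 2332, 2387 and 2390, with a 95% interval of the log2 change from -0.24 to 0.20. Rpl31, at the mouth of the exit tunnel, read 1843, 1781 and 1936 against 1789, 1856 and 1872, with an interval from -0.22 to 0.24. For Rpl19 and Rpl31 the groups overlapped. For the more tightly measured of 2 probe sets of Rps29, a zinc-binding protein of the small subunit head, the signal was 4356, 4515 and 4027 against 3873, 3831 and 3793, with an interval from -0.04 to 0.37. One Rpl23 probe set and Rps16 had intervals from -0.07 to 0.39 and from -0.09 to 0.38, and as in that Rps29 probe set their contused arrays all lay above the uninjured ones. In all, 24 of 61 members (39.3%) had an interval wholly within -0.5 to 0.5, against 38.5% of all tested.

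For 12 of 16 genes with more than 1 tested probe set, the lowest and highest log2 change lay within 0.2 of each other, and for 13 of the 16 every probe set was above 0. The 12 include Rps6 and Rpsa, whose probe sets differed in their call, and Rpl26, whose probe sets differed in sign. Many of the 12, among them Rps6, Rpsa and Rpl23, have pairs from the same sequence record, so their agreement is not independent. Of genes with probe sets from different records, Rpl3, Rpl6 and Rps29 also lay within 0.2, whereas Rpl13a (0.21 apart) and Rps15 (0.24 apart) did not. Rpl3l (0.39 apart) did not either, although its 2 probe sets come from the same record. The probe sets of Rpl21 lay farthest apart. Its 4 probe sets had changes of -0.21, -0.09, 0.17 and 0.48, none past the threshold. The brightest Rpl21 probe set read 939, 1114 and 896 after contusion against 847, 1208 and 1112, and the dimmest 150, 137 and 130 against 83.7, 99.4 and 118. Rpl26, at the exit of the tunnel, had probe sets at -0.11 and 0.07 with overlapping groups in both.

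Most members are bright, and 46 of the 61 (75.4%) belonged to the brightest 10% of tested probe sets by mean signal. These 46 had a median log2 change of 0.22, and 40 were above 0. The 588 other probe sets of that bright set, with those of several ribosomal protein genes left out too, had a median of -0.16, and 35.7% were above 0. In that bright set 4 of 46 members were called higher and 0 lower, against 73 and 142 of the 588 others. The members' values also lay closer together, from -0.23 to 0.54, where the others ran from -1.96 to 3.07.

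**Figure D4:**
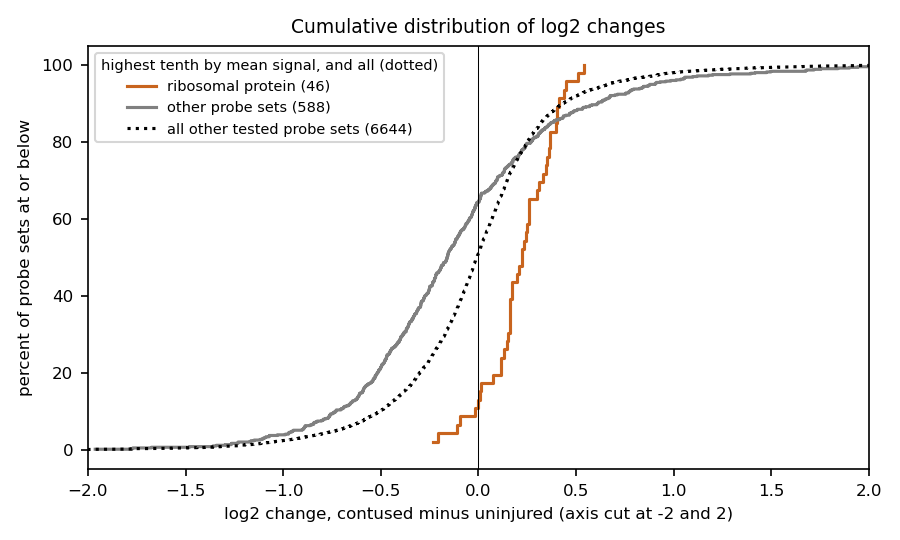
Percent of probe sets (y axis) at or below a given log2 change (x axis, contused minus uninjured). The orange line shows the 46 ribosomal protein probe sets in the brightest 10% by mean signal, the grey line the 588 others of that bright set and the dotted line all 6644 tested probe sets that are not members. The orange line rises between -0.23 and 0.54 with its middle at 0.22, right of the grey line, whose middle is at -0.16.

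The marker genes of several cell types differed between the groups. Of 18 tested microglia and macrophage markers 17 were higher and 0 lower after contusion, and their summed signal was 13504 to 14514 against 5050 to 6105. Of 25 tested neuronal markers 22 were lower and 0 higher, with a summed signal of 12467 to 13778 against 24705 to 28764; Syt1, Camk2a and Gad2 were too dim to test. Of 15 fibroblast and meningeal markers 6 were higher and 0 lower, at 19772 to 23265 against 12829 to 18098. Of myelin and oligodendrocyte markers 5 of 12 were lower and 0 higher (15446 to 16629 against 19016 to 20219), and of astrocyte markers 4 of 14 were higher and 0 lower (24090 to 26744 against 20547 to 22388). Neuronal, myelin and astrocyte markers were thus all present in uninjured cord, as its label says. Within the contused group, array 2 had the highest summed ribosomal protein signal (95401, against 82852 and 81782) and the highest microglial sum (14514, against 13504 and 14361). Contused array 3 was lowest in the first sum but close to array 2 in the second. Within the uninjured group array 2 was likewise highest in both (79805 and 6105), and it was the highest for 40.7% of all tested probe sets. Uninjured arrays 1 and 3 ranked in opposite order in the 2 sums (70590 and 73031, and 5456 and 5050). In bulk tissue fewer cells of a type and less RNA per cell cannot be told apart. The 3′ to 5′ signal ratio of the GAPDH control, a sign of RNA integrity, was 1.10, 1.08 and 1.12 on contused arrays 1, 2 and 3. It was 1.17, 1.13 and 1.15 on uninjured arrays 1, 2 and 3, and the groups did not overlap. Over all 6 arrays, a lower GAPDH ratio went with a higher member median, in exactly inverse order. The actin ratio was 1.19, 1.11 and 1.24 on contused arrays 1, 2 and 3 and 1.28, 1.03 and 1.15 on uninjured arrays 1, 2 and 3. The actin ratios overlapped between the groups. Within each group the actin ratio was lowest on array 2, where the member median was highest, and the highest ratio of all was on uninjured array 1, where the member median was lowest. The part of cell mix and of RNA quality in the ribosomal protein values was not tested.

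The elongation factors, which carry tRNAs to the ribosome and move it along the mRNA, split. Of 5 tested genes, among them the regulatory kinase gene Eef2k, 1 was higher and 1 lower. Each gene was represented by its probe set with the highest mean, as for all lists that follow. By that measure 14.3% of 42 ribosomal protein genes and 7% of all 3955 genes were higher, and 0 of the 42 and 9.91% of the 3955 lower. Eef1a1, the widely expressed form of the tRNA-carrying factor, read 2643, 2861 and 3108 after contusion against 2335, 2294 and 2093. The groups did not overlap, and it rose 1.28-fold (log2 change 0.36, limma adjusted p = 0.0472). Eef1a2, the form of neurons and muscle, read 999, 897 and 870.0 against 1919, 1907 and 2132, and fell by 1.11 on the log2 scale (limma adjusted p = 0.000161). The Eef1a1 call was lost as any 1 of 5 arrays was left out (contused 2 or 3, or uninjured 1, 2 or 3; adjusted p up to 0.203). It was also lost with a floor at the 10th percentile (0.0538) or at a signal of 1 (0.0593), without the filter (0.0855), without the intensity trend (0.0888) and with the replicate block (0.0603).

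Among proteins bound to the ribosome or its membrane docking site, 1 of 7 was higher and 0 lower, with a median log2 change of 0.22. Rack1, a scaffold that sits on the small subunit, read 795, 834 and 865 after contusion against 559, 692 and 457, and rose 1.48-fold (log2 change 0.57, limma adjusted p = 0.0326). Its groups did not overlap. The adjusted p rose above the threshold without contused array 1, 2 or 3 (0.0604, 0.0872 and 0.0598) or uninjured array 1 or 3 (0.0798 and 0.145), or without the filter (0.123).

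The other translation lists had medians from -0.25 to 0.10, and differences between lists were not tested. Mitochondrial ribosomal proteins, which build the separate ribosome of that organelle, were above 0 in 2 of 13 cases, with a median of -0.10. None was called in limma in either direction, and 1 was lower at an unadjusted p under 0.05, Mrpl13 (log2 change -0.59, adjusted p = 0.0681). Without contused array 3 Mrpl13 passed, at -0.82 (limma adjusted p = 0.00616). The list of initiation factors also holds the regulators Eif2ak1, Eif2ak2, Eif2ak3 and Eif4ebp1. It had a median of -0.01 with 0 of 18 called in limma and 1 lower at an unadjusted p under 0.05. That was the helicase gene Eif4a2 (log2 change -0.39, adjusted p = 0.0522). Eif4a2 passed in limma without contused array 3 (0.0348), with a floor at the 50th percentile (0.0444) and with median scaling (0.0478). Genes of ribosome assembly and the nucleolus had a median of -0.07, with 0 of 13 called in limma and 1 lower at an unadjusted p under 0.05. That was Ubtf, a factor of rRNA transcription (log2 change -0.39, adjusted p = 0.108). The 5 genes of the tRNA synthetase list, among them the associated protein gene Aimp2, had a median of 0.10. In limma 0 were called, also at an unadjusted p under 0.05, although 4 of the 5 were above 0. The smallest p was that of Farsa (log2 change 0.12, adjusted p = 0.501).

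Regulators of ribosome production around mTOR, Myc and the S6 kinases had a median of -0.25, with 1 of 11 higher and 2 lower. Rictor, a subunit of the second mTOR complex, fell 1.64-fold, from 233 ± 25.2 to 142 ± 22.1 (SD, n = 3; limma adjusted p = 0.0124), a call lost without the filter (0.0582). Pdpk1, a kinase that activates Akt and S6 kinase, read 67.2, 68.1 and 49.7 after contusion against 104, 80.7 and 89.3, near the floor, and fell by 0.47 on the log2 scale (limma adjusted p = 0.0282). The kinase gene Akt2 rose 1.43-fold, from 105 ± 4.39 to 150 ± 2.29 (limma adjusted p = 0.0198), while its dimmer probe set did not pass (log2 change 0.29, limma adjusted p = 0.154). Mtor itself had a log2 change of -0.41 that did not pass (limma adjusted p = 0.107). Myc, Mycn and Max were too dim to test. Pdpk1 lost its call without any 1 of 5 arrays (contused 1, 2 or 3, or uninjured 1 or 3; adjusted p up to 0.0995), with a floor at the 10th percentile (0.0525) or at a signal of 1 (0.0596), without the filter (0.0672) and with trimmed mean scaling (0.0588). Akt2 lost it without contused array 2 (0.0719) or uninjured array 1 (0.0601) or 3 (0.0911).

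**Figure D5:**
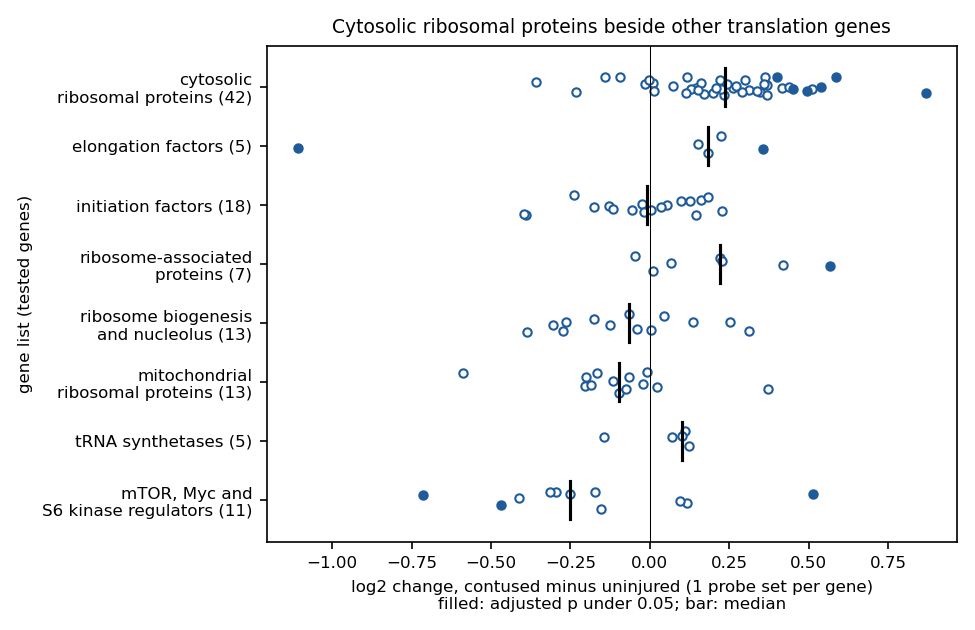
Log2 change (x axis, contused minus uninjured) of each tested gene in 8 groups of translation genes (y axis, number of genes in parentheses). Each point is a gene by its probe set with the highest mean, filled where the adjusted p was under 0.05, and the bar is the median. The ribosomal protein median is 0.24, the mitochondrial ribosomal protein median -0.10 and that of the mTOR, Myc and S6 kinase group -0.25.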

How the data were processed

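The authors deposited 1 intensity per probe set and array, read as linear from the values; summarisation, background and scaling are not given in the sources used here. Median intensity ran from 122 to 127 per array. The table was used as deposited. The intensities carry no count depth, and 3 arrays per group limit the precision.

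Gene names came from the array's annotation, updated to GRCr8 symbols through the gene identifier (62 of 63 members matched). The 59 control probe sets were left out. Values under the pooled 25th percentile (61.6) were set to that floor and log2-transformed. Log2 changes understate differences near it. Probe sets above it on at least 3 of 6 arrays entered a two-sided test, contused against uninjured without covariates, by lmFit and trended eBayes of limma 3.58.1 (R 4.3.3), adjusted by Benjamini-Hochberg over all 6705, with the threshold at 0.05. The procedure was tested on simulated arrays whose noise was independent between probe sets. The members moved together on single arrays, so that simulation says nothing about the counts of members called. Errors of signals are SDs, and those of log2 changes are limma's SEs and 95% intervals.

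Probe sets can also bind near-identical copies and processed pseudogenes, and 29 of the 61 tested members carry a suffix (_s, _g, _i or _r) that the array's maker uses for shared or less strictly chosen probes.

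Named members are those past the threshold, the 5 largest changes each way, the 5 narrowest intervals, copies, genes whose probe sets disagree and those with a group at the floor. From each translation list, up to 3 called genes each way are named, or the gene with the smallest p. Mtor, Rpl7a, Rpl14, Rpl39, Rplp0, Rpl3 and Rpl17 were named after their values were seen. Members and lists were chosen with earlier results of these data known. Alternatives covered floor, filter, scaling, variance moderation, a replicate block, left-out arrays, plain probe sets, updated symbols and averaging of probe sets.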

Additional observations from a re-analysis of the deposited data

How the results depend on the processing

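The median change of the ribosomal protein probe sets stayed above 0 under each of 16 other settings of the fit, from 0.16 to 0.29, and 81.7% to 88.7% of tested members were above 0. Subtracting the median of all tested probe sets, which scaling moved by less than 0.1, left 0.17 to 0.30. How many members passed was less stable. Against 7 as reported (11.5%, where 7.79% of all tested were higher), 14 were called with quantile normalization (23%, against 8.46%). With trimmed mean scaling 14 were called (22.6%, against 9.35%), and without the filter on dim probe sets 2 (3.17%, against 3.04%). All of these were higher. When probe sets of several ribosomal protein genes were added, an alternative chosen after seeing the data, 15 were called. Leaving out 1 array gave 1 to 11 members called, all higher (1.64% to 18.6%, where 4.37% to 6.97% of all tested were higher). It gave 659 to 1241 probe sets in all, and 2 to 6 genes of the translation lists. The counts over all probe sets were 754 without contused array 2 and 659 without uninjured array 3, and those of the translation lists were 2 without contused array 2, uninjured array 1 or uninjured array 3. Without the filter, 662 probe sets were called (1165 with it) and 2 genes of the translation lists (6 with it).

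The replicate numbers in the titles were not taken as pairs: deviations of same-numbered arrays correlated at 0.04, 0.22 and -0.24. With the replicate block 11 members were called, 10 higher and 1 lower (Rpl3l, adjusted p = 0.0423 in limma). The share of members called higher was then 16.4%, against 7.98% of all tested, and 9.92% of all tested were lower.

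Among the named probe sets, whose signs were compared, 5 changed sign under some setting, none of them called. Rpl19 stood at 0.0029 with median scaling, 0.032 with trimmed mean scaling, and between -0.047 and 0.014 with 1 array left out. Rpl31 stood at -0.013 with quantile normalization and between -0.021 and 0.039 with 1 array left out. One Rpl21 probe set stood at 0.027 with quantile normalization and between -0.24 and 0.012 with 1 array left out, and another between -0.38 and 0.060. Rpl36al1 ran from -0.090 to 0.18. The cause of these differences was not tested, and the number of arrays limits the precision of them all.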

Other observations

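The 39 tested probe sets annotated to several genes, at least 1 of them a ribosomal protein gene, had a median log2 change of 0.27. Of these, 34 (87.2%) were above 0, against 49.4% of all tested. In limma 8 (20.5%) were higher at an adjusted p under 0.05 and 0 lower, against 7.79% and 9.59% of all tested, with 0 lower also at an unadjusted p under 0.05. They cannot be given to single genes and share targets with the members.

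The 5S rRNA control probe set, outside the fit, read 172, 172 and 146 on the contused arrays and 169, 171 and 204 on the uninjured arrays, with overlapping groups.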
